A study of Mus musculus with 6 samples.

Results

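The matrix proteases and their inhibitors were described in the mouse hippocampus 24 h after traumatic brain injury (TBI). The members were the protein-coding genes named as matrix metalloproteinases (Mmp), tissue inhibitors of metalloproteinases (Timp), ADAM proteases and ADAMTS proteases, together with the plasminogen activators Plat and Plau and the urokinase receptor Plaur. They were chosen by symbol and not by any measured value, and 75 of the 52550 listed genes (21819 of them protein-coding) were members, namely 22 Mmp, 4 Timp, 19 Adamts, 27 Adam and 3 plasminogen activator genes. All mice were males aged 8 to 10 weeks, with the strain given as C57BL / 6 in the labels and as C57B6/J in the methods, anesthetized with ketamine and xylazine, with the skull opened over the right parietal bone. The TBI group (TBI1 to TBI3, n = 3) then received a controlled cortical impact of moderate severity, and the sham group (Sham1 to Sham3, n = 3) had the same surgery without the impact. Total RNA of the hippocampus gave 1 library per mouse, and the sources used here do not say whether the hippocampi of both sides were pooled. The comparison asks which of these genes differed between injured and sham-operated hippocampus.

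Matrix metalloproteinases are zinc enzymes that cut collagens, laminins, proteoglycans and many other secreted proteins, and the TIMPs block their active site. ADAM proteases release the outer part of membrane proteins, ADAMTS proteases cut proteoglycans or trim procollagens, and the plasminogen activators turn plasminogen into plasmin, which can in turn activate several Mmp proenzymes. In the brain these enzymes are known for their action on the basement membrane of vessels and on the perineuronal matrix around neurons.

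The 6 libraries summed to 31630936 to 41771872 estimated counts, and several of them stood apart in ways that the groups do not explain. The summed level of 8 striatum markers was 3937 CPM (the count rescaled to one library total for all libraries) in TBI1 and 144 to 206 CPM in the other libraries, and 6 cerebellum markers summed to 2404 CPM in TBI3, 1093 CPM in TBI1 and 249 to 468 CPM elsewhere. In TBI1 Itpr1 alone made up 1067 CPM of this sum and Gabra6 and Barhl1 were at 0, so that the sum there came from 1 gene. The 6 oligodendrocyte markers summed to 2862 CPM in Sham2 and to 8537 to 10490 CPM elsewhere, and 8 choroid plexus markers summed to 53.3 CPM in Sham2, 242 CPM in TBI1, 261 CPM in TBI3 and 2036 to 2370 CPM in the other 3. The 10 markers of hippocampal neurons were present in every library but summed to 838 to 1116 CPM in sham and 450 to 751 CPM in TBI, without overlap. In TBI1 Wfs1 alone gave 276 CPM of this sum, its highest level, and the other 9 markers, each lowest in TBI1, summed to 174 CPM there and to 484 to 1024 CPM in the other libraries. In such bulk tissue fewer cells of a type and less RNA per cell cannot be told apart. Gfap, the glial filament gene known to rise in reactive astrocytes, was at 4055 CPM in Sham2 and at 541 to 1478 CPM in the other libraries, but of the 7 astrocyte markers 3 (Gfap, Aqp4 and Sox9) had their highest and 3 (Slc1a2, Slc1a3 and Gja1) their lowest value in Sham2. Whether the dissection or the label of any of these libraries differs from what is stated cannot be told from the files, and each difference between TBI and sham below is one between libraries as labelled. For many genes below the value without Sham2, TBI1 or TBI3 is therefore given as well.

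No member passed the thresholds for a changed gene, namely a 1.5-fold change in either direction at an adjusted p under 0.1 and an unadjusted p under 0.05. By edgeR's quasi-likelihood test with Benjamini-Hochberg adjustment over all 18795 tested genes, 0 of 52 tested members were called, as were 0 genes in all (0.0%), and every member had an adjusted p of at least 0.982. With the defaults of DESeq2, 46 of 28118 genes (0.164%) and 0 members were called. At an unadjusted p under 0.05, 1 member was higher in TBI (Mmp11, 1.92% of members against 2.16% of all genes) and 1 was lower (Adamts9, 1.92% against 2.13%), together 3.85% of members against 4.29% of all genes. Of 59 members with a p by DESeq2, 1 was higher (Mmp11, against 2.02% of all genes) at that unadjusted threshold. Lower were 3 (Adamts8, Adamts9 and Mmp8, against 2.08%), and 4.11% of all genes lay under it in either direction. Of the 52 tested members 28 had a log2 fold change above 0 (53.8%), against 51.4% of all genes, and the median log2 fold change was 0.07 over the members and 0.01 over all tested genes. The libraries of the groups did not overlap in 5 members (9.62%), against 10.2% of all genes. These were Mmp11 and Adam23, higher in TBI as were 4.77% of all genes, and Adamts8, Adamts9 and Adamts17, lower in TBI as were 5.45%. The shares by edgeR lay near the background. By DESeq2 the 3 lower of 59 members were a larger share than the 2.08% of all genes.

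**Figure D1:**
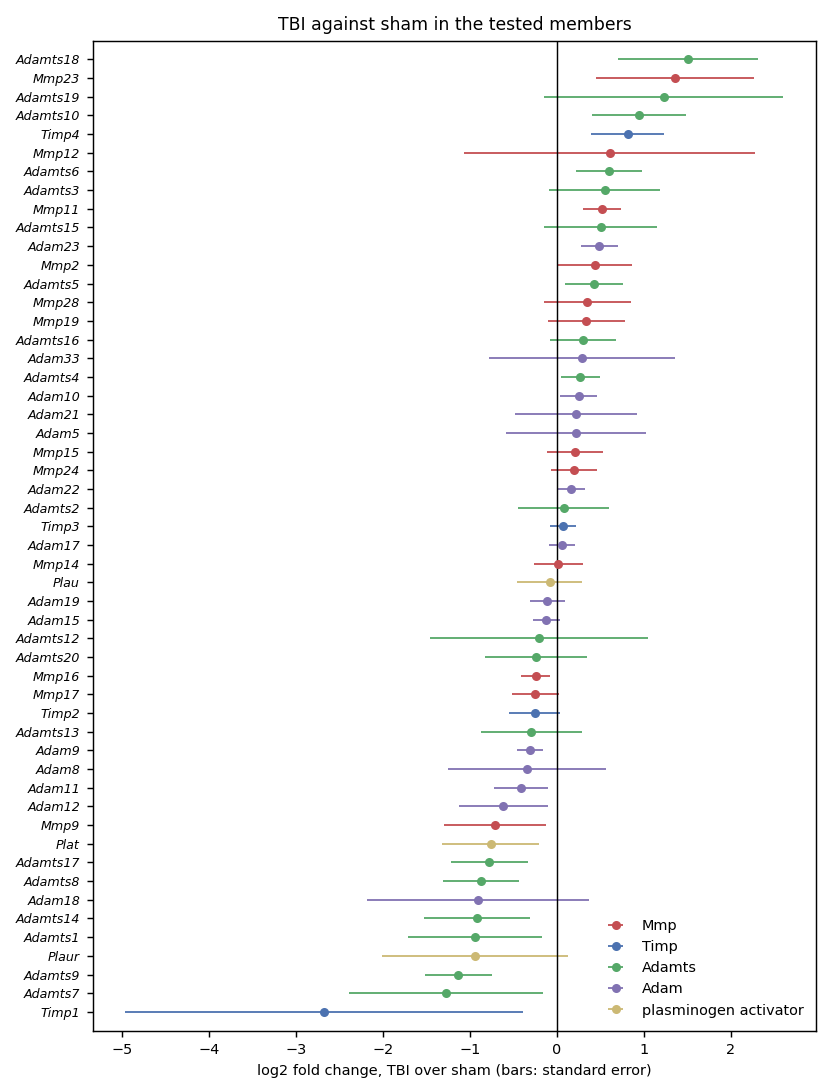
The log2 fold change of TBI over sham is plotted for each of the 52 tested members, coloured by gene family, with the standard error as a bar. The estimates run from -2.67 for Timp1 to 1.51 for Adamts18, the Timp1 bar is the widest, and none of the members passed the adjusted threshold.

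The tested members did not include all 75. The filter on low counts kept 19 of 19 Adamts, 4 of 4 Timp, 3 of 3 plasminogen activator, 12 of 22 Mmp and 14 of 27 Adam genes. Of the 23 genes that were not tested, 14 were listed at 0 in every library, and 9 had counts in at least 1 library. Levels between genes are compared per length, as RPKM (the CPM per kilobase of exon). By mean RPKM over the 6 libraries 11 members reached 10 or more, 16 lay between 1 and 10, and 34 had some counts but a mean under 1.

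Timp2, the inhibitor that also serves in the activation of pro-Mmp2, had the highest per-length level, with a mean of 87.0 ± 26.4 RPKM (SD, n = 6) and a range of 60.6 to 134 RPKM. Its range did not overlap that of the next gene, Mmp17, which had 30.1 ± 7.74 RPKM and a maximum of 39.9 RPKM. Below it came Adam11 (28.8 ± 7.90 RPKM), Mmp24 (21.6 ± 5.82 RPKM), Timp3 (17.7 ± 2.17 RPKM) and Adam10 (16.9 ± 3.22 RPKM), and the ranges of neighbours in this order overlapped. Timp1 followed with a mean of 16.7 RPKM, but its median was 1.77 RPKM and its value in Sham2 was 86.5 RPKM. By family, the ADAM genes summed to 87.2 to 99.2 RPKM per library, the Mmp genes to 69.1 to 77.9 RPKM, the Timp genes to 84.5 to 242 RPKM, the Adamts genes to 22.9 to 41.2 RPKM and the plasminogen activator genes to 6.37 to 26.7 RPKM. The highest Timp, Adamts and plasminogen activator sums were those of Sham2. The 6 membrane-type Mmp genes made up 80.9% to 89.9% of the Mmp sum, and Timp2 alone made up 55.5% to 74.6% of the Timp sum.

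**Figure D2:**
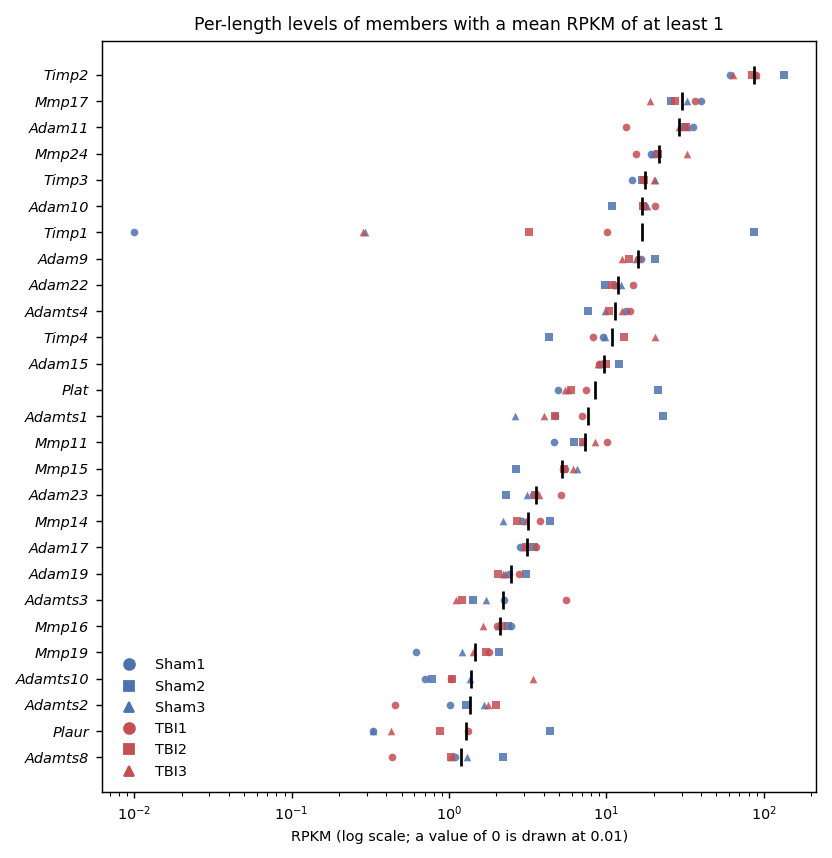
Per-length levels (RPKM, log scale) of the 27 members with a mean RPKM of at least 1, with 1 symbol per library and a black tick at the mean of the 6. Timp2 lies apart at 60.6 to 134 RPKM, while the values of Timp1 spread from 0, drawn at 0.01, to 86.5 RPKM in Sham2.

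In the plasminogen activator system Sham2 stood above the other libraries for Plaur and Plat. Plaur, the receptor that holds urokinase at the cell surface (chromosome 7, 24462484 to 24475968 on GRCm38), was at 0.864, 11.5 and 0.860 CPM in the 3 sham libraries, given in the order of their numbers, and at 3.45, 2.31 and 1.12 CPM in the 3 TBI libraries. Sham2 was 3.34-fold above the next library, TBI1, and the 3 TBI libraries lay above the other 2 sham libraries. Over all 6 libraries the log2 fold change was -0.94 ± 1.07 (SE, n = 3 per group, adjusted p = 0.982 by edgeR). Without Sham2 it was 1.41 ± 0.56, with an unadjusted p of 0.0473 and an adjusted p of 0.997 by edgeR, so its direction was decided by that library.

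Plat, the tissue plasminogen activator, which neurons and endothelial cells release, had 30.8, 133 and 35.7 CPM in sham and 46.3, 37.0 and 34.1 CPM in TBI. Its log2 fold change was -0.76 ± 0.56 (SE, n = 3 per group, adjusted p = 0.982 by edgeR), and 0.23 ± 0.18 without Sham2. Plau, the urokinase gene, was low and even, with 2.62, 2.39 and 1.62 CPM in sham and 1.86, 2.91 and 1.49 CPM in TBI. Its groups overlapped throughout, and Sham2 was not its highest library. Of 12 partners of this system 9 were tested, and 1 was higher and 0 were lower at an unadjusted p under 0.05 (against 2.16% and 2.13% of all genes). The higher one was Serpine2, the protease nexin that inhibits thrombin and plasminogen activators, with 177, 148 and 197 CPM in sham and 247, 202 and 225 CPM in TBI (log2 fold change 0.37 ± 0.14, adjusted p = 0.982 by edgeR). Plg, the gene of plasminogen itself, had 0.0997 CPM in Sham2 and was listed at 0 in the other libraries.

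Timp1, the inhibitor known for its induction in injured and inflamed tissue (chromosome X, 20870166 to 20874735), had 0, 3083 and 10 estimated counts in sham and 363, 91 and 9 in TBI. On the CPM scale these were 0, 76.8 and 0.261 CPM in sham and 8.89, 2.88 and 0.253 CPM in TBI. The groups overlapped, since Sham2 was 8.64-fold above TBI1 and TBI3 was as low as Sham3. The log2 fold change was -2.67 ± 2.29 (SE, n = 3 per group, adjusted p = 0.982 by edgeR) over all libraries and 4.93 ± 1.88 without Sham2. There Timp1 passed the filter on low counts only through its TBI libraries, and Sham2 was singled out by its values, so no test is read from this difference. The defaults of DESeq2 gave no adjusted p for Timp1 over all libraries. Without both Sham2 and TBI1 the gene did not pass the filter on low counts.

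The other TIMPs were abundant and varied less. Timp2 had 236, 523 and 348 CPM in sham and 348, 329.9 and 249 CPM in TBI, with a log2 fold change of -0.26 ± 0.29 that became 0.08 ± 0.23 without Sham2. Timp3, which binds to the matrix and also blocks Adam17 and aggrecan-cutting ADAMTS enzymes, had 118, 138 and 166 CPM in sham and 139, 142 and 163 CPM in TBI. The difference was smaller than the spread between mice (log2 fold change 0.07 ± 0.15, adjusted p = 0.985 by edgeR). Of the exonic bases of Timp3, 21.3% are shared with Syn3 on the opposite strand, and whether counting used strand is not given in the sources used here, so reads of this stretch cannot be told apart.

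Timp4, the inhibitor best known from heart and brain, had 55.8, 25.3 and 57.7 CPM in sham and 48.4, 75.8 and 120.0 CPM in TBI. Its highest library was TBI3, which also held the cerebellum markers, and its lowest was Sham2. The log2 fold change was 0.82 ± 0.42 (SE, n = 3 per group, adjusted p = 0.982 by edgeR). It ran from 0.42 without TBI3 to 1.08 without TBI1, and the part of the cerebellum markers in this value was not tested.

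Of the secreted Mmp genes most were at or near 0. Mmp3 (stromelysin-1), a plasmin-activated enzyme that cuts proteoglycans and laminin and activates other Mmp proenzymes, had 0, 152 and 0 counts in sham and 44, 0 and 0 counts in TBI, and did not pass the filter. Only the libraries with the highest Timp1 and Plaur, namely Sham2 and TBI1, held Mmp3 counts. Mmp12, the macrophage elastase, had 0, 46 and 0 counts in sham and 45, 16 and 5 counts in TBI. Without Sham2 the remaining sham libraries were at 0, and the mean TBI level of 0.583 CPM was at least 7.66-fold higher than the mean level of 0.0761 CPM that 3 counts per library allow. Without TBI1 as well, the mean TBI level was 0.323 CPM and the bound 4.25-fold. The gene passed the filter without Sham2 only through the TBI libraries, and Sham2 was left out after its values were seen, so no test is read from this difference. Mmp8, the neutrophil collagenase, had 8, 28 and 8 counts in sham and 0, 0 and 4 counts in TBI. At these low counts each TBI library lay below each sham library, also without Sham2. Mmp8 did not pass the filter of edgeR, and DESeq2 gave a log2 fold change of -3.30 (unadjusted p = 0.0449, adjusted p = 0.904), and -2.45 without Sham2. The 8 neutrophil markers summed to 1.90, 19.0 and 5.55 CPM in sham and to 2.89, 9.99 and 3.57 CPM in TBI, with Ly6g at 0.224 CPM in Sham2 and at 0 elsewhere, and the 6 monocyte markers to 1.38 to 8.80 CPM, again highest in Sham2. The part of these cells in the Sham2 values was not tested.

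Side by side on chromosome 9, from 7272514 to 7699585, lie 9 of the Mmp genes, namely Mmp13, Mmp12, Mmp1b, Mmp3, Mmp10, Mmp8, Mmp27, Mmp20 and Mmp7. Of these 9, 1 was tested (Mmp12) and 5 were at 0 in every library. The promoters of several collagenases and stromelysins are known for a binding site of the AP-1 transcription factor, and the letters TGANTCA, which read the same on both strands, were searched in the RefSeq promoter windows (GRCm38.p6). These windows run from 250 bases before to 50 bases after a gene start. Windows were at hand for 44 of the 75 members. The letters were found in 12 of these 44, against 8.97% of 27025 genes with a window and 7.81% of all 32851 windows. N stands for any base, and the match read TGAATCA in Adam20, Adam25 and Mmp20 and TGACTCA or TGAGTCA in the others. Of the 9 genes of the chromosome 9 cluster 7 held them, all but Mmp8 and Mmp27, and the cluster genes share this stretch of the genome and are related in sequence. Among tested members 3 of 30 held them, namely Plaur, Adam19 and Mmp12, and among members that were not tested 9 of 14. The sequences around the letters are shown for the 3 tested genes and for Mmp3, Mmp10 and Mmp13, the cluster genes whose enzymes are best known from injured tissue. Each is read 5′ to 3′ on the strand of its gene, with the 7 matching bases in capitals.
Mmp3, + strand, chr9:7445756-7445802: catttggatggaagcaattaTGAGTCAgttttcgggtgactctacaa
Mmp12, + strand, chr9:7347310-7347356: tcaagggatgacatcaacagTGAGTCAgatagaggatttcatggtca
Mmp13, + strand, chr9:7272459-7272505: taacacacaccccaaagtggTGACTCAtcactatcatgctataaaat
Mmp10, + strand, chr9:7502259-7502305: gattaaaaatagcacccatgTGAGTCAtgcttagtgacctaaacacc
Plaur, + strand, chr7:24462394-24462440: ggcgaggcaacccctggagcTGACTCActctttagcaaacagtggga
Adam19, + strand, chr11:46055833-46055879: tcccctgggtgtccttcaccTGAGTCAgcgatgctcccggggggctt

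The matching bases began 46 bases before the start of Mmp3, 44 before Mmp12, 35 before Mmp13, 63 before Mmp10, 69 before Plaur and 131 before Adam19. The level of the 6 genes differed although each window held the letters. Mmp10 was at 0 in every library, Mmp13 had 0 to 11 counts, and Adam19 had 15.7 to 21.9 CPM in sham and 14.6 to 19.9 CPM in TBI. The windows of Timp1 and Adamts1 did not hold these letters, which says nothing of other windows or of the factor itself.

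**Figure D3:**
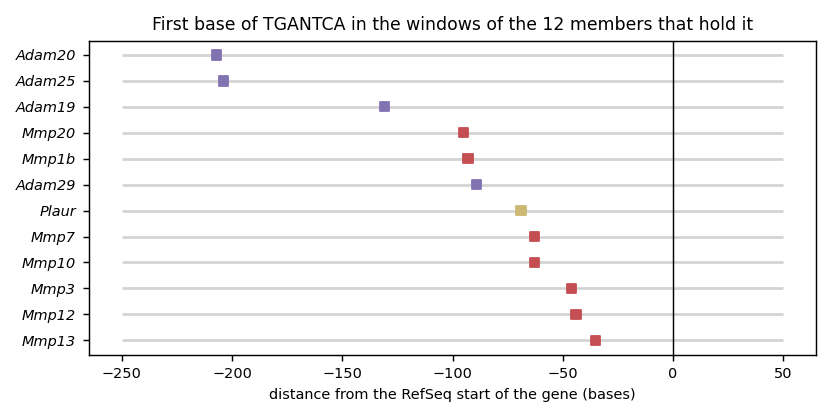
The first base of TGANTCA is drawn at its distance in bases from the RefSeq start in the windows of the 12 members that held it (red Mmp, purple Adam, yellow Plaur). All 12 lie before the start, from 35 bases in Mmp13 to 207 bases in Adam20.

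The gelatinases, which cut denatured collagen and basement membrane collagen, were expressed at a low level. Mmp9 had 2.15, 2.77 and 2.03 CPM in sham and 0.514, 2.59 and 1.15 CPM in TBI (log2 fold change -0.71 ± 0.58, adjusted p = 0.982 by edgeR), and its lowest library was TBI1, without which the log2 fold change was -0.31 ± 0.45. Without TBI2, its highest TBI library, Mmp9 had a log2 fold change of -1.48 ± 0.49 (unadjusted p = 0.0265, adjusted p = 0.804 by edgeR). Mmp2 had 3.63, 1.17 and 2.27 CPM in sham and 3.48, 3.07 and 3.03 CPM in TBI, and its lowest library was Sham2. Its log2 fold change of 0.44 was 0.11 without Sham2. Neither gelatinase separated the groups. Mmp11, also called stromelysin-3, had 13.0, 17.2 and 19.5 CPM in sham and 28.1, 19.6 and 23.6 CPM in TBI. The groups did not overlap, although the highest sham and the lowest TBI library were nearly equal. The log2 fold change was 0.52 ± 0.22 (SE, n = 3 per group, unadjusted p = 0.0489, adjusted p = 0.982 by edgeR). Of its exonic bases 5.58% overlap Chchd10 on the opposite strand, which had 142 ± 6.93 CPM in sham and 186 ± 25.5 CPM in TBI.

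The membrane-type Mmp genes, whose enzymes stay anchored to the cell surface, had the highest summed per-length level of the family in every library. Mmp17, a membrane-type enzyme with a lipid anchor, had 264, 170.0 and 216 CPM in sham and 242, 179.9 and 125 CPM in TBI, and its groups overlapped (log2 fold change -0.25 ± 0.27). For Mmp17 the log2 fold change ran from -0.51 without TBI1 to -0.0430 without TBI3. Mmp24, a neuronal membrane-type enzyme, had 89.5, 99.9 and 93.0 CPM in sham and 71.7, 99.2 and 153 CPM in TBI, with its highest value in TBI3 and its lowest in TBI1. Its log2 fold change of 0.20 ± 0.27 was -0.15 without TBI3, and 13.6% of its exonic bases overlap BC029722 on the opposite strand. Mmp14, which activates pro-Mmp2, had 17.3, 26.2 and 13.1 CPM in sham and 22.5, 16.2 and 18.5 CPM in TBI (log2 fold change 0.02 ± 0.28, and 0.33 without Sham2). Mmp15 was at 14.3 CPM in Sham2 and at 28.7 to 35.1 CPM in the other libraries, and its log2 fold change of 0.21 was -0.0864 without Sham2. The sum of the 6 genes was 63.2 ± 6.70 RPKM in sham and 61.4 ± 2.34 RPKM in TBI (SD, n = 3), a difference smaller than the spread between mice.

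Mmp19, an enzyme of basement membrane proteins, had 2.17, 7.35 and 4.25 CPM in sham and 6.37, 6.07 and 5.001 CPM in TBI. Its groups overlapped through Sham2 alone, and its log2 fold change of 0.34 ± 0.44 was 0.86 ± 0.36 without that library (unadjusted p = 0.058, adjusted p = 0.997 by edgeR). Of its exonic bases 22.3% overlap Tmem198b on the opposite strand, which had 8.66 ± 1.67 CPM in sham and 11.05 ± 2.25 CPM in TBI. Mmp23 had 0.222, 0.723 and 0.625 CPM in sham and 0.319, 0.695 and 3.03 CPM in TBI, and the log2 fold change of 1.36 ± 0.91 was -0.0576 without TBI3.

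Of the ADAMTS enzymes that cut aggrecan, brevican and other proteoglycans, Adamts4 had the highest mean per-length level (11.3 ± 2.45 RPKM over 6 libraries). In Sham2, however, Adamts1 lay above it, with 22.9 RPKM against 7.68 RPKM for Adamts4. The 63.8, 37.0 and 47.4 CPM of Adamts4 in sham and its 68.3, 49.7 and 60.6 CPM in TBI overlapped. Adamts1 had 24.96, 122 and 13.8 CPM in sham and 37.3, 25.1 and 21.3 CPM in TBI, and Sham2 was 3.26-fold above TBI1. Its log2 fold change of -0.94 ± 0.77 was 0.52 ± 0.35 without Sham2, with adjusted p-values of 0.982 and 0.997 by edgeR. Adamts5, which lies beside Adamts1 on chromosome 16, had 3.01, 3.24 and 1.80 CPM in sham and 4.53, 3.26 and 3.03 CPM in TBI, with no such peak in Sham2.

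Adamts9, which cuts versican and aggrecan, had the smallest unadjusted p of the members. It had 12.4, 23.6 and 8.44 CPM in sham and 6.47, 7.87 and 5.93 CPM in TBI, so that each sham library lay above each TBI library. The log2 fold change was -1.13 ± 0.39 (SE, n = 3 per group, unadjusted p = 0.0235, adjusted p = 0.982 by edgeR) and -0.63 ± 0.26 without Sham2 (unadjusted p = 0.0529). Its direction was the same when any 1 library was left out. Genes on the opposite strand overlap 9.18% (A730049H05Rik) and 2.82% (Gm15737) of its exonic bases. Adamts8, another proteoglycan-cleaving member, had 5.04, 10.2 and 5.97 CPM in sham and 2.01, 4.77 and 4.78 CPM in TBI, again without overlap (log2 fold change -0.88 ± 0.44, adjusted p = 0.982 by edgeR), and 10.6% of its exonic bases overlap the antisense gene Gm29724. For Adamts8 the log2 fold change was -0.52 ± 0.43 without Sham2 and -0.57 ± 0.37 without TBI1. Adamts17 had 6.47, 5.41 and 6.54 CPM in sham and 1.52, 5.09 and 4.16 CPM in TBI, and its log2 fold change of -0.78 ± 0.44 was -0.41 ± 0.25 without TBI1. In both genes the lowest library was TBI1, at least 2-fold below every other library. Adamts20 went the other way in Sham2, with 12.3, 1.97 and 8.28 CPM in sham and 5.90, 5.72 and 7.42 CPM in TBI, and without Sham2 its log2 fold change was -0.69 ± 0.26 (SE, unadjusted p = 0.0388, adjusted p = 0.997 by edgeR).

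Other ADAMTS members followed single libraries. Adamts3, which trims procollagen and also processes reelin, had 12.1, 7.65 and 9.30 CPM in sham and 29.8, 6.54 and 6.01 CPM in TBI. The value of TBI1 was the highest and the other TBI libraries were below every sham library, so that the log2 fold change of 0.55 ± 0.64 was -0.62 ± 0.27 without TBI1. Adamts2, the main procollagen N-proteinase, had 9.48, 12.01 and 15.6 CPM in sham and 4.24, 18.5 and 16.4 CPM in TBI, with its lowest value in TBI1 and a log2 fold change of 0.08 that was 0.50 without TBI1. Adamts14, which trims the same procollagens, had 0.593, 1.60 and 0.651 CPM in sham and 0.612, 0.632 and 0.253 CPM in TBI, with its highest value in Sham2 and a log2 fold change of -0.92 that was -0.32 without it. None of these procollagen-trimming genes separated the groups. Adamts10, a member linked to fibrillin microfibrils, had 5.80, 6.46 and 11.2 CPM in sham and 8.45, 8.60 and 28.0 CPM in TBI, and its log2 fold change of 0.94 ± 0.54 was 0.12 ± 0.35 without TBI3. Adamts18 had 0.716, 0.798 and 0.547 CPM in sham and 0.833, 0.601 and 4.44 CPM in TBI, and its log2 fold change of 1.51 ± 0.80 was 0.06 ± 0.52 without TBI3. Adamts10, Adamts18, Adamts19 and Mmp23 were at least 2-fold above all other libraries in TBI3 (4 of 52 members, against 1.31% of all genes). TBI3 was also the library with the cerebellum markers, among them Gabra6 at 199.8 CPM in TBI3 and at most 0.729 CPM elsewhere, and their part in these values was not tested.

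Among the ADAM genes, Adam11, Adam22 and Adam23 lack an active site and serve as neuronal receptors of the secreted LGI proteins. They made up 38.1% to 50.2% of the summed ADAM level in RPKM. Adam11 had 199.8, 177 and 183 CPM in sham and 75.1, 181 and 164 CPM in TBI, and its low value in TBI1 set the log2 fold change of -0.42 ± 0.31, which was -0.11 without TBI1. Adam22 had 159.7, 141 and 177 CPM in sham and 213, 156 and 166 CPM in TBI (log2 fold change 0.17 ± 0.16, and 0.0194 without TBI1). Adam23 had 61.2, 40.9 and 56.3 CPM in sham and 92.3, 62.7 and 67.1 CPM in TBI, without overlap (log2 fold change 0.49 ± 0.21, unadjusted p = 0.0586, adjusted p = 0.982 by edgeR). TBI1, the highest library of Adam22 and Adam23 and the lowest of Adam11, was the library with striatum markers, whose part was not tested. Without TBI1 and Sham2 the log2 fold change of Adam23 was 0.14.

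Among the sheddases the ratio of the highest to the lowest library was 1.26 for Adam17 to 1.89 for Adam10, with Adam9, Adam15 and Adam19 between them, and 3.44 for Adam12, 9.68 for Adam33 and 9.75 for Adam8. Adam10, the main α-secretase of the amyloid precursor protein, had 84.6, 53.1 and 89.5 CPM in sham and 100.4, 84.0 and 86.2 CPM in TBI (log2 fold change 0.25 ± 0.21, and 0.052 without Sham2, its lowest library). Adam17, which releases tumour necrosis factor, had 20.2, 24.7 and 21.3 CPM in sham and 25.5, 22.0 and 21.5 CPM in TBI (log2 fold change 0.06 ± 0.15). Adam9, a widely expressed sheddase, had 68.5, 83.6 and 63.1 CPM in sham and 65.0, 57.0 and 51.9 CPM in TBI (log2 fold change -0.31 ± 0.15). Adam15, also called metargidin, had 73.9 CPM in Sham2 and 54.1 to 60.8 CPM elsewhere (log2 fold change -0.12 ± 0.15, and 0.03 without Sham2). None of these differences passed the test.

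Adam8, a sheddase of leukocytes and activated glia, again set Sham2 apart. It had 0.938, 9.15 and 1.41 CPM in sham and 4.43, 3.26 and 1.38 CPM in TBI. Its log2 fold change of -0.34 ± 0.91 was 1.36 ± 0.58 without Sham2 (unadjusted p = 0.059, adjusted p = 0.997 by edgeR). Adam12, an adhesion-related sheddase named after its values were seen, had 15.7 CPM in Sham2 and 4.57 to 6.37 CPM elsewhere. Adam33, a further catalytically active member, had 0.124, 1.20 and 0.156 CPM in sham and 0.172, 1.14 and 0.506 CPM in TBI. Besides these and Adam19 there were 16 other ADAM genes, many of them known from testis and sperm, of which 3 were tested and 9 were at 0 in every library. Adam24, Adam25, Adam20 and Adam39, side by side on chromosome 8 from 40675077 to 40827037, were among those at 0.

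Sham2 was the highest library in 20 of the 52 tested members, while 23.7% of all tested genes had their highest value there. It was at least 2-fold above every other library in 7 members (against 2.09% of all genes), namely Timp1, Plaur, Adamts1, Plat, Adam12, Adamts14 and Adam8, with ratios to the next library of 8.64 for Timp1 to 2.06 for Adam8. Sham2 was singled out by its values, so these counts describe 1 library and are not a comparison of groups. Sham2 was at least 2-fold below every other library in 2 members, Adamts20 and Mmp15 (against 3.7% of all genes). Of 81 tested pathway genes outside the members 9 (11.1%), namely Serpinf2, Anxa2 and S100a10 in the plasminogen system, Cd44, Adamtsl3, Tnc, Col4a1, Bgn and Hbegf, were at least 2-fold above every other library in Sham2, and 4 (4.94%), namely Tgfa, Bcan, Hapln2 and Reck, were at least 2-fold below. Cd44, a hyaluronan receptor that docks Mmp9 and Mmp14 at the cell surface, had 3.09, 135 and 4.45 CPM in sham and 24.6, 9.13 and 6.996 CPM in TBI. The Cd44 log2 fold change of -1.81 was 1.85 without Sham2. The part of the astrocytes, whose 7 markers went both ways in Sham2, in these values was not tested. TBI1 was at least 2-fold below every other library in 7 members (against 2.86% of all genes), among them Adam11, Mmp9 and Adamts8.

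**Figure D4:**
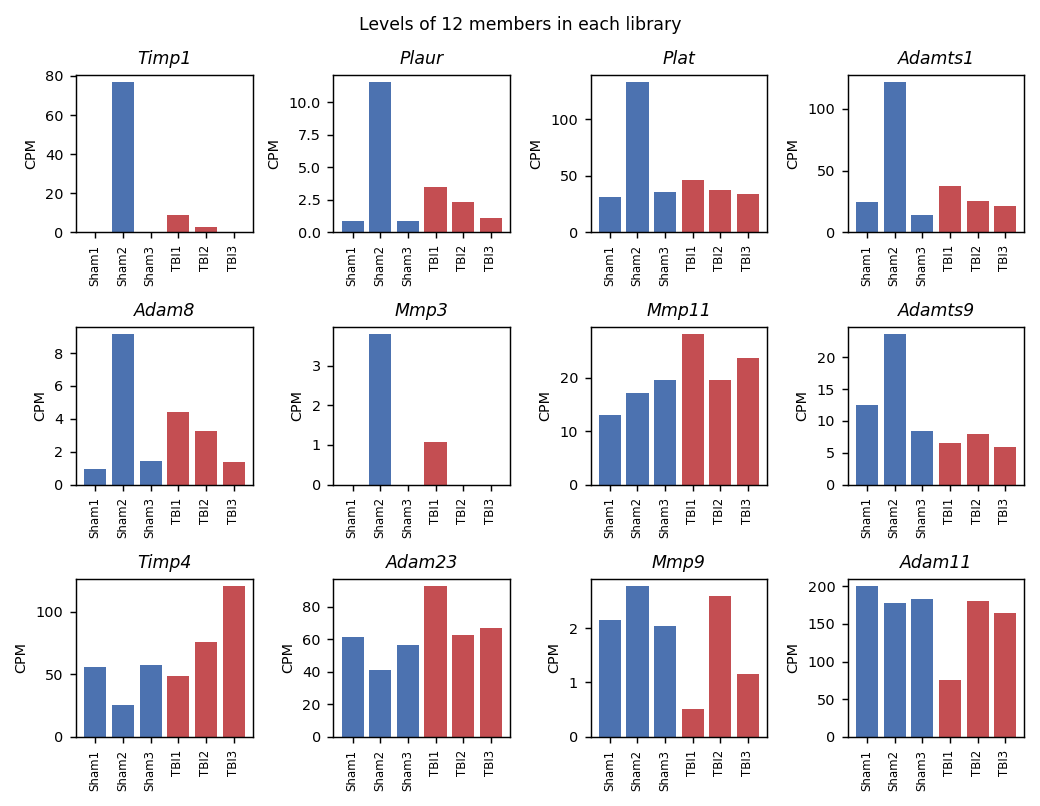
Levels in CPM, on linear axes from 0, of 12 members in the 3 sham (blue) and 3 TBI (red) libraries, with 1 bar per library. Timp1, Plaur, Plat, Adamts1, Adam8 and Mmp3 have their highest bar in Sham2, whereas Mmp11 and Adam23 are higher and Adamts9 is lower in each TBI library than in each sham library.

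The comparison was repeated without Sham2, since so many values rested on it. Of 54 members then tested, 0 were called by edgeR, as were 0 of all genes (0.0%). DESeq2 called 0 of 61 members and 62 of 27618 genes (0.224%). At an unadjusted p under 0.05 edgeR gave 3 members higher in TBI (Timp1, Plaur and Mmp12, against 1.91% of all genes) and 1 lower (Adamts20, against 1.48%), and 13 members did not overlap between the groups, against 20.4% of all genes. DESeq2 gave 5 members higher at that threshold (Timp1, Plaur, Mmp12, Mmp19 and Adam8, against 2.26% of all genes) and 2 lower (Adamts20 and Adamts9, against 1.6%). Timp1 and Mmp12 passed the filter of edgeR only through the TBI libraries where they are high, and Mmp12 had counts in TBI libraries alone, so their place among the higher members was in part set by that choice. The shares of all genes are no measure for Timp1 and Mmp12, and no test is read for either. Of 51 members in both fits 13 changed sign. Among these Timp1, Plaur, Plat, Adamts1, Adam8 and Adam12 went from negative to positive log2 fold changes. The share of all genes that changed sign was not counted, so this number is no result about the members. Without Sham2 and TBI1 together, 0 of 50 members were called (0.0159% of all genes), 2 were higher (Timp4 and Adam33, against 2.58%) and 2 lower (Adamts3 and Mmp17, against 2.43%) at an unadjusted p under 0.05, and 20 did not overlap (against 37.1%). Adam33 passed the filter there only through its TBI libraries, so the share of all genes is no measure for it.

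**Figure D5:**
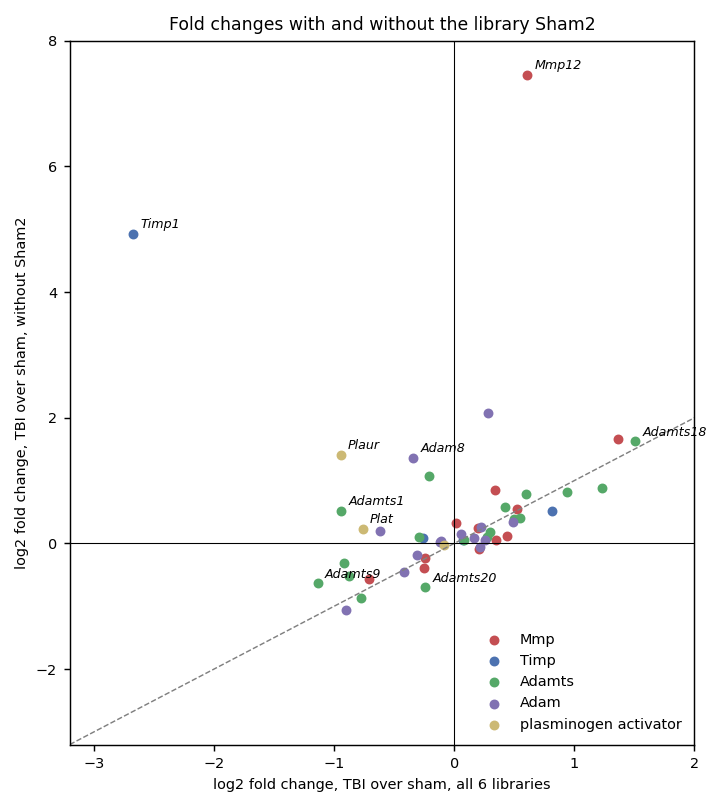
The log2 fold change of TBI over sham from all 6 libraries (x axis) is plotted against that without Sham2 (y axis) for the 51 members in both fits, with equal values on the dashed line. Timp1 moves from -2.67 to 4.93 and Plaur from -0.94 to 1.41, while the y value of Mmp12, whose remaining sham libraries are at 0, depends on the fitted model and is not a measured fold.

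The median spread between mice was larger over these genes than over all tested genes. These sets were not matched for level, and the part of low counts in this difference was not tested. The median SD of log2(CPM + 0.5) was 0.42 in sham and 0.39 in TBI over the tested members, and 0.24 and 0.25 over all tested genes. The sham SD was the larger in 31 of 52 members (59.6%), against 48.8% of all genes.

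None of the substrates and partners of these proteases passed the thresholds for a changed gene, and the smallest adjusted p was 0.982 by edgeR. For this and the next lists, 2.16% of all genes were higher and 2.13% lower at an unadjusted p under 0.05. Of 26 matrix substrates 26 were tested, and 0 were higher and 1 was lower at that threshold. This was Acan, the aggrecan core protein of perineuronal nets, with 4.37, 8.35 and 4.48 CPM in sham and 2.65, 3.16 and 2.53 CPM in TBI (log2 fold change -1.05 ± 0.33, unadjusted p = 0.0176, adjusted p = 0.982 by edgeR), and its log2 fold change was -0.67 without Sham2. Each TBI library lay below each sham library. Of 21 tested regulators of metalloproteases 0 were higher and 1 was lower, namely Pcsk5, a proprotein convertase that activates secreted proenzymes, with 10.6, 19.2 and 12.7 CPM in sham and 4.16, 9.73 and 4.27 CPM in TBI (log2 fold change -1.23 ± 0.41, and -0.95 without Sham2). Of 6 ADAMTS-like proteins, which lack the protease domain, 1 was higher (Adamtsl5, log2 fold change 0.83 ± 0.33).

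Of 19 tested ADAM substrates and partners 3 were higher and 1 was lower at an unadjusted p under 0.05. Lgi2, a ligand of the ADAM11, ADAM22 and ADAM23 receptors, had 58.5, 70.1 and 105 CPM in sham and 117, 113 and 124 CPM in TBI (log2 fold change 0.60 ± 0.22), and Lgi4, a related ligand, overlapped between the groups (0.47 ± 0.18). Nrg1, a growth factor precursor that ADAM proteases cut, had 5.28, 5.21 and 3.54 CPM in sham and 7.99, 5.88 and 8.23 CPM in TBI (0.65 ± 0.26). Nrcam, an adhesion molecule that is also shed, had 255, 291 and 265 CPM in sham and 208, 241 and 214 CPM in TBI (-0.29 ± 0.11). The adjusted p was 0.982 by edgeR for each of these genes, and 2.16% of all genes were higher and 2.13% lower at that unadjusted threshold.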

How the data were processed

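Hippocampal RNA of 3 sham and 3 TBI mice was sequenced, with 1 library per mouse, and groups came from the sample labels. Per the submitters' processing notes and the study's methods, FastQC was used for read quality, HISAT2 for alignment (GRCm38) and StringTie for quantification. The authors deposited 1 estimated count for each gene and library, a whole number that was not normalized. Low values pile up at multiples of 4 (in Sham1 the value 4 occurred 816 times and the value 3 occurred 374 times), which a tally of reads would not do, and floors of 3 counts cover counting error only. The annotation release, the strandedness and how coverage became counts are not given in the sources used here. The library sums of 31630936 to 41771872 counts limit the precision of low genes.

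Symbols, coordinates and exon lengths were taken from GENCODE vM21 (GRCm38). Mmp1a matched the name rule but is annotated as a polymorphic pseudogene and was left out. In R 4.3.3, edgeR 4.0.16 was used with filterByExpr by group, TMM scaling and the quasi-likelihood test with Benjamini-Hochberg adjustment over all tested genes, after tests on simulated data. A standard error was the size of the log2 fold change over the root of its F statistic, and RPKM came from TMM-scaled CPM and merged exon length. DESeq2 1.42.0, the tool of the authors, was an alternative. For a single value, exact permutation of 3 against 3 mice reaches a p of 0.1 at best. Single members were taken by symbol, but the choice of these families, the gene lists and the tests were made with earlier results of these data known. Named genes were Plat, Plau, Plaur, the 4 Timp genes, 13 members with known roles in brain, the 3 highest by mean RPKM in the Mmp, Adam and Adamts families, the 5 with the smallest p in each direction and, of a pathway list, up to 4 genes at an unadjusted p under 0.05. Serpinf2, Anxa2, S100a10, Adamtsl3, Tnc, Col4a1, Bgn, Hbegf, Cd44, Plg, Mmp8, Mmp10, Mmp12, Mmp13, Mmp15, Mmp19, Mmp23, Tgfa, Bcan, Hapln2, Reck, Adam12, Adam15, Adam19, Adam33, Adamts2, Adamts19 and Adamts20 were named after their values were seen. Marker lists were summed as CPM and not tested as sets. The lists of microglia, astrocytes, oligodendrocyte precursors, endothelial cells, mural cells, meningeal fibroblasts and thalamus summed to 293 to 550, 4597 to 7327, 154 to 221, 158 to 227, 158 to 220, 76.2 to 285 and 80.6 to 505 CPM. A planned search for protein motifs was not run, and 1 gene of the plasminogen list is not reported here.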

Additional observations from a re-analysis of the deposited data

How the results depend on the processing

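No member was called by edgeR or DESeq2 under any of the 15 alternatives, which were DESeq2 with its defaults and on the genes edgeR kept, library totals, upper-quartile scaling, filters of any count and of 10 counts in every library, the replicate number as a block, each library left out in turn and, chosen after seeing the data, Sham2 and TBI1 left out together and DESeq2 without Sham2. Under another tool, scaling or filter with all 6 libraries, 0 of the 62 named genes with a fit changed sign. The number of members higher at an unadjusted p under 0.05, 1 with all libraries, was 0 with the filter of any count (against 1.71% of all genes), 2 without Sham2 and TBI1 (2.58%), 5 with DESeq2 without Sham2 (2.26%) and, by edgeR, 0 to 3 with 1 library left out (0 without Sham1 or TBI3, against 1.25% and 1.5% of all genes, 2 without TBI2, against 2.5%, and 3 without Sham2, against 1.91%). The number lower, also 1, was 3 with the defaults of DESeq2 (against 2.08% of all genes), 2 without Sham2 and TBI1 (2.43%), 2 with DESeq2 without Sham2 (1.6%) and, by edgeR, 0 to 2 with 1 library left out (0 without TBI1 or TBI3, against 2.09% and 1.38%, and 2 without TBI2, against 3.31%). The 5 members without overlap (10.2% of all genes) became 6 (without TBI3, 17.5%) to 13 (without Sham2, 20.4%) with 1 library left out and 20 without Sham2 and TBI1 (37.1%), where fewer samples make overlap rarer. The median log2 fold change of 0.07 ran from -0.14 without Sham3 to 0.13 without Sham2 by edgeR, and was 0.17 by DESeq2 without Sham2. Of the members counted as higher, Timp1 and Mmp12 without Sham2, and Adam33 without Sham2 and TBI1, passed edgeR's filter only through TBI libraries. The shares of all genes are no measure for these genes. The cause of the other moves was not tested.

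Leaving out 1 library changed the sign of 31 named genes. Their log2 fold changes ran from -0.90 to 0.20 for Adam12, -0.20 to 0.03 for Adam15, -0.0217 to 0.15 for Adam17, -0.24 to 0.0437 for Adam19, -0.54 to 2.08 for Adam33, -0.79 to 1.36 for Adam8, -1.39 to 0.52 for Adamts1, -0.97 to 1.82 for Adamts19, -0.27 to 0.50 for Adamts2, -0.69 to 0.31 for Adamts20, -0.62 to 0.91 for Adamts3, -0.73 to 0.62 for Adamtsl3, -1.05 to 1.10 for Anxa2, -0.88 to 0.19 for Bgn, -2.56 to 1.85 for Cd44, -1.01 to 0.31 for Col4a1, -1.59 to 1.11 for Hbegf, -0.25 to 7.46 for Mmp12 (whose upper end is a fitted value against sham libraries at 0 and no bound), -0.19 to 0.33 for Mmp14, -0.0864 to 0.47 for Mmp15, -0.0576 to 1.83 for Mmp23, -0.15 to 0.42 for Mmp24, -1.10 to 0.23 for Plat, -0.40 to 0.10 for Plau, -1.43 to 1.41 for Plaur, -0.15 to 0.46 for Reck, -1.03 to 0.87 for S100a10, -4.05 to 4.93 for Timp1, -0.49 to 0.0812 for Timp2, -0.0347 to 0.20 for Timp3 and -1.09 to 0.24 for Tnc. For Adam12, Adam15, Adam17, Adam19, Adam33, Adam8, Adamts1, Adamtsl3, Anxa2, Bgn, Cd44, Col4a1, Hbegf, Mmp12, Mmp14, Plat, Plaur, S100a10, Timp1, Timp2 and Tnc the highest value was that without Sham2. For the other named genes with a fit the log2 fold change kept its sign and ran from -1.20 to -0.67 for Acan, 0.0520 to 0.38 for Adam10, -0.65 to -0.11 for Adam11, 0.0194 to 0.25 for Adam22, 0.30 to 0.61 for Adam23, -0.40 to -0.18 for Adam9, 0.12 to 1.28 for Adamts10, -1.16 to -0.32 for Adamts14, -1.12 to -0.41 for Adamts17, 0.0598 to 1.92 for Adamts18, 0.10 to 0.50 for Adamts4, 0.20 to 0.58 for Adamts5, -1.07 to -0.52 for Adamts8, -1.42 to -0.63 for Adamts9, 0.61 to 1.06 for Adamtsl5, 0.0338 to 0.67 for Bcan, 0.52 to 1.07 for Hapln2, 0.43 to 0.87 for Lgi2, 0.30 to 0.60 for Lgi4, 0.38 to 0.65 for Mmp11, -0.51 to -0.0430 for Mmp17, 0.0107 to 0.86 for Mmp19, 0.11 to 0.90 for Mmp2, -1.48 to -0.31 for Mmp9, -0.36 to -0.23 for Nrcam, 0.48 to 0.79 for Nrg1, -1.75 to -0.95 for Pcsk5, 0.27 to 0.46 for Serpine2, -4.72 to -0.0115 for Serpinf2, 0.11 to 1.52 for Tgfa and 0.42 to 1.08 for Timp4. Without Sham2 and TBI1 together the sign differed from that with all libraries for Adam10 (-0.0319), Adam12 (0.0819), Adam15 (0.0477), Adam22 (-0.0625), Adam8 (0.98), Adamts1 (0.26), Adamts3 (-0.77), Adamts4 (-0.0119), Adamtsl3 (0.46), Anxa2 (0.66), Bcan (-0.0063), Bgn (0.41), Cd44 (1.10), Hbegf (0.22), Mmp15 (-0.0475), Plat (0.10), Plau (0.0514), Plaur (0.99), Reck (-0.0077), S100a10 (0.53) and Tgfa (-0.33). With 1 library of a group left out, and more so with 1 left out of each, the spread is estimated from few mice, and low genes such as Mmp12 rest on few counts.

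The replicate numbers were not taken to pair the mice, since the deviations of same-numbered libraries from their group means correlated with r = -0.1, -0.065 and 0.153 over the tested genes. With the number as a block, 0 members were called, 2 were higher (against 1.93% of all genes) and 2 lower (1.92%) at an unadjusted p under 0.05, the median log2 fold change was 0.10, and the sign differed for Adam8 (0.19), Adamts2 (-0.14), Adamts20 (0.0772), Cd44 (0.18), Plaur (0.0455) and Timp1 (0.0798). Not every library correlated best with its own number.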
